A study of Mus musculus with 15 samples.

Results

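The 10 lipid droplet and cholesterol ester genes Plin2, Plin3, Hilpda, Soat1, Nceh1, Pnpla2, Lipe, Mgll, Dgat1 and Dgat2 were chosen by gene symbol from tables that list 54390 genes, and each symbol matched 1 row. Their transcripts were counted by bulk RNA-seq in 15 libraries of BV2, a mouse microglial cell line that is used as a model of myeloid cells. WT and Trem2-/- (labelled Trem2KO) BV2 cells were grown overnight in media alone (non-foamy) or with soluble cholesterol at 20 µg per ml (foamy), to ask how loss of TREM2, a myeloid lipid receptor, alters cells loaded with cholesterol. WT cells gave 4 libraries without and 4 with cholesterol, and Trem2-/- cells gave 3 without and 4 with it. According to the methods, the Trem2-/- line was made with 1 guide RNA in a BV2 clone that carries Cas9, and knockout cells were expanded from single-cell clones, so genotype and clone cannot be told apart. Whether the WT cells carried Cas9 is not given in the sources used here. The cholesterol was complexed with methyl-beta-cyclodextrin, and with no group given the carrier alone, cholesterol and carrier cannot be told apart either. The labels do not say that replicates were separate cultures, and the p-values may then measure technical spread only.

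Cells store surplus cholesterol as fatty acyl esters in lipid droplets, beside triglyceride, and macrophages packed with such droplets are called foam cells. The droplet surface carries perilipins (Plin2, Plin3). SOAT1 in the endoplasmic reticulum esterifies cholesterol and NCEH1 hydrolyses the esters again, which frees cholesterol for export. DGAT1 and DGAT2 make triglyceride in its last step, and PNPLA2 (also called ATGL), LIPE (hormone-sensitive lipase) and MGLL break it down in sequence, with HILPDA as an inhibitor of PNPLA2.

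The libraries held 23538963 to 41683825 counted reads. In each, 82.7 to 83.9% of the counts from 1 to 10 were even, so the counts are not all independent molecules and their counting error is larger than their size alone gives. WT non-foamy replicate 3, the library with the fewest reads, stood apart on the second principal component (-43.6, against -16.2 to 25.9 in the others). Trem2 itself was counted at 327 to 415 CPM (counts per 1000000 reads, after TMM scaling of the library sizes) in WT and at 214 to 232 CPM in Trem2-/- libraries, so its transcript was lower but still counted in the line labelled Trem2KO. Of 12 macrophage and microglia markers, 11 were above 1 CPM in WT cells and 9 in Trem2-/- cells. Tmem119 was under 1 CPM in all groups and Cx3cr1 and P2ry12 also in Trem2-/- cells. The summed level of the 12 markers was 2520 to 2805 CPM in WT non-foamy and 2821 to 2976 CPM in WT foamy libraries. It was 3521 to 3782 CPM in Trem2-/- libraries. The sum thus moved with the line and, in WT cells, with cholesterol, as the genes described here did in part. Its largest part was Cd68, with group means of 1238 to 1651 CPM. The group means of Fcgr1, Cx3cr1 and P2ry12 were lower in Trem2-/- than in WT cells. The part of these markers in the results was not tested. Markers of adipocytes (Plin1, Cidec, Adipoq and 3 others) summed to at most 0.207 CPM, and 5 fibroblast markers had no read. The 3 hepatocyte markers summed to at most 0.134 CPM and 6 markers of other brain cells to at most 0.674 CPM. Of the latter, Mbp had reads in all 15 libraries.

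With cholesterol, 1 gene was called in Trem2-/- cells, Plin2, which rose, and it was called under all 14 alternatives. In WT cells 2 genes were called as higher, Soat1 (log2 0.21) and Nceh1 (log2 0.23), the pair that makes and cleaves cholesterol esters. The log2 fold changes of Plin3 (0.18) and Pnpla2 (0.23) were of similar size but not called. The calls of Soat1 and Nceh1 were fragile. Soat1 was called in 4 and Nceh1 in 10 of 15 alternatives, and neither was called in a fit of the WT libraries alone. The response of Plin2 differed between the lines by a test of the difference itself in all 21 alternatives, that of Hilpda in 18 and that of Soat1 in 8 of 21, and that of Nceh1 was not shown to differ. Between the lines, Soat1, Nceh1 and Pnpla2 were higher and Dgat2 was lower in Trem2-/- cells with or without cholesterol. Plin3 was higher in Trem2-/- cells without cholesterol, and Plin2 and Hilpda were higher in them with it. The calls of Dgat2 were less firm, since they held in 11 of 14 alternatives without and 11 of 15 with cholesterol. Reads could not show whether each cell held more transcript or more cells held it, since fewer cells of a kind and less RNA per cell cannot be told apart in bulk RNA.

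The counts behind this came from 1 model of all libraries (edgeR quasi-likelihood test), with calls made at a p under 0.05 after Benjamini-Hochberg adjustment over 14237 tested genes. Mgll did not reach the filter on low counts, and 9 of the 10 genes were tested. In the WT response to cholesterol 2 of the 9 rose and 0 fell, where 1.66% of all genes rose and 1.14% fell. The unadjusted p was under 0.05 for 5 of the 9 (Plin3, Soat1, Pnpla2, Nceh1 and Hilpda), against 16.4% of all genes. In the Trem2-/- response 1 rose and 0 fell, against 0.105% and 0.0351% of all genes. In Trem2-/- against WT cells, 4 genes had a higher and 1 a lower level in media alone, against 21% and 22.6% of all genes. After cholesterol these numbers were 5 and 1, against 14.3% and 15.9%. The response of 2 genes was more positive and that of 1 more negative in Trem2-/- than in WT cells, against 1.99% and 1.64% of all genes. These comparisons share libraries (the WT foamy libraries stand in 3 of them) and are not separate evidence. The 9 genes had a median log2 fold change with cholesterol of 0.09 in WT (all genes tested, 0.0053) and 0.05 in Trem2-/- cells (all genes, 0.0045). Between the lines their median was 0.10 without cholesterol (all genes, 0.02) and 0.34 with it (all genes, 0.00033).

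**Figure D1:**
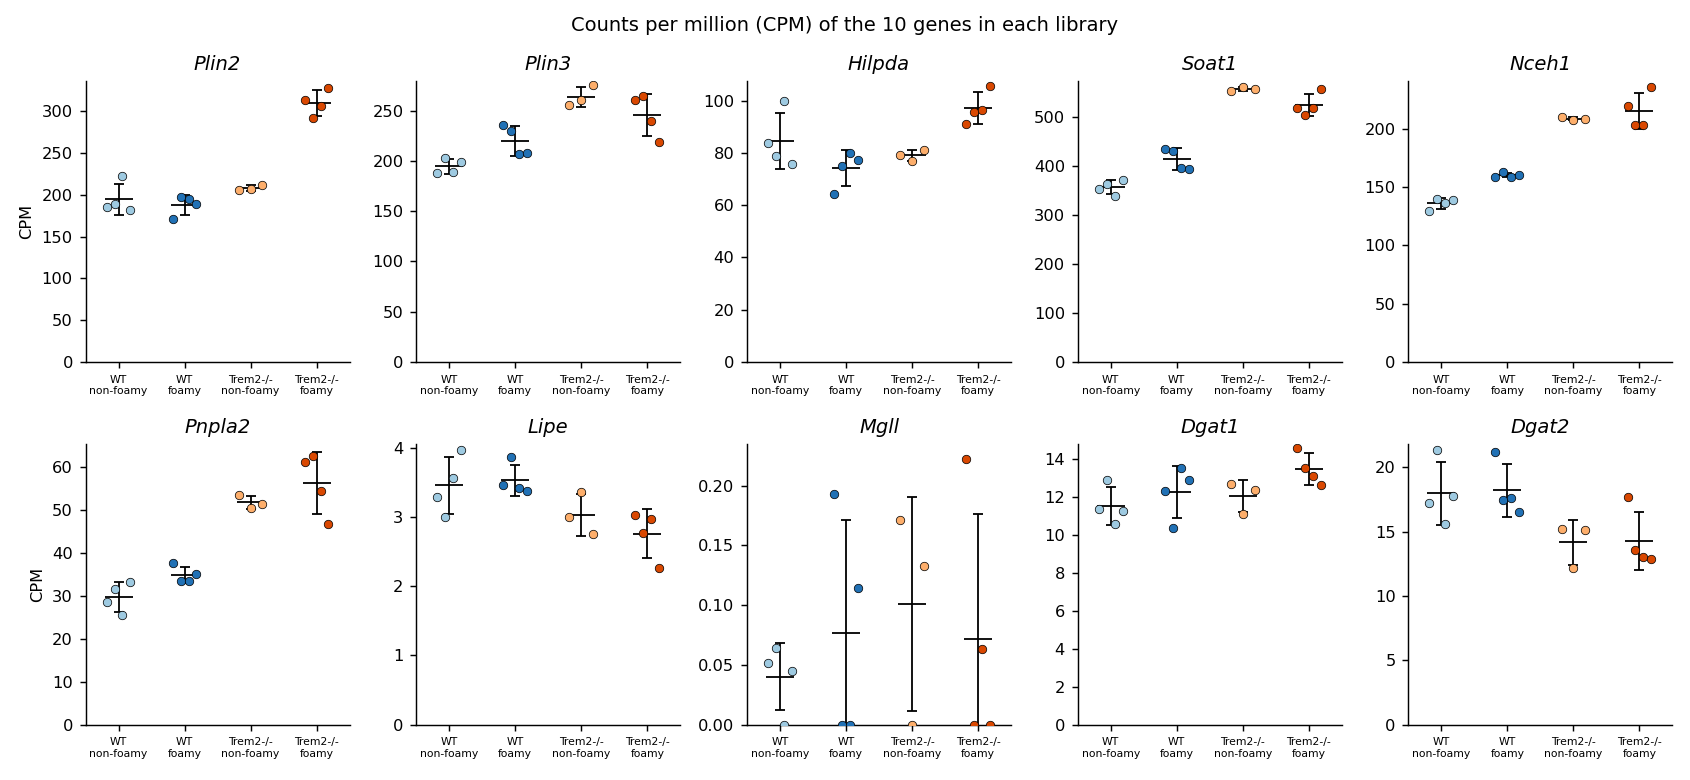
Level of each of the 10 genes (y axis, CPM, from 0) in every library (points) of the 4 groups (x axis), with the group mean and s.d. as bars. The 4 Trem2-/- foamy libraries stood between 292 and 328 CPM for Plin2, above the other 11, while Soat1, Nceh1 and Pnpla2 stepped up between the WT and Trem2-/- libraries.

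Per length of exon the genes spanned a wide range of levels. Averaged over a group, Hilpda had 67.2 to 88.1 CPM per kilobase, Plin2 53.5 to 88.3, Plin3 51.4 to 69.6, Soat1 36.4 to 56.9 and Nceh1 26.0 to 41.1. Pnpla2 followed with 9.86 to 18.7 CPM per kilobase, then Dgat2 with 4.59 to 5.90 and Dgat1 with 3.77 to 4.41. Lipe had 0.469 to 0.600 CPM per kilobase. The coat, inhibitor and sterol ester genes were thus the abundant members, and the triglyceride enzymes and the lipases were lower. The order of the top members changed between groups. In Trem2-/- foamy cells Plin2 (88.3 ± 4.36, s.d., n = 4) and Hilpda (88.1 ± 5.49, n = 4) lay within 1 s.d. of each other, while in WT foamy cells Hilpda (67.2 ± 6.25, n = 4) was above Plin2 (53.5 ± 3.44, n = 4). In CPM, without correction for length, Plin2 (188) was above Hilpda (74.2) in WT foamy cells.

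**Figure D2:**
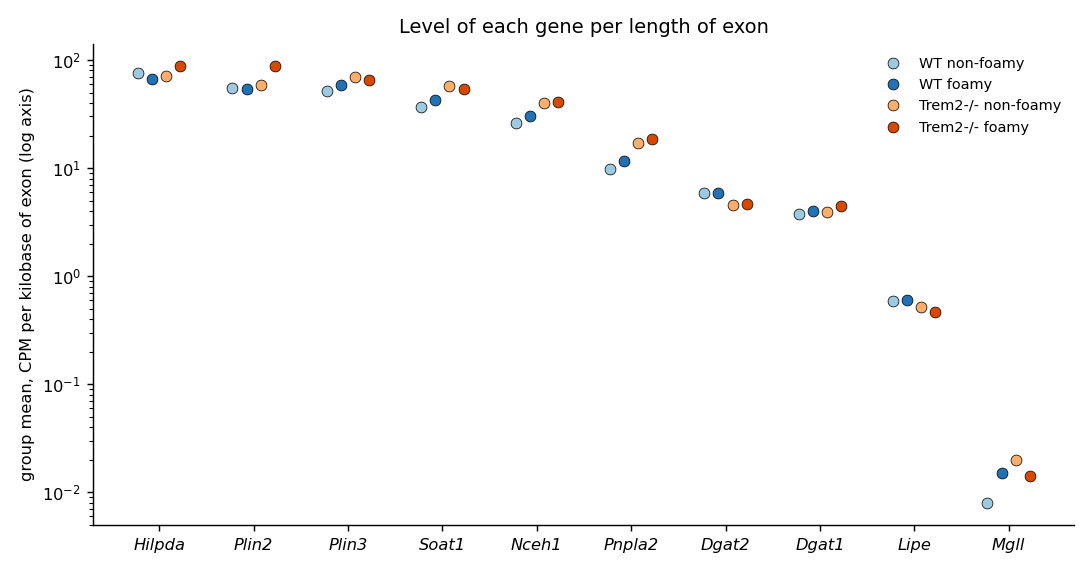
Group mean of each gene in CPM per kilobase of exon (y axis, log scale), with the genes ordered by their mean over all libraries (x axis) and 1 point per group. Hilpda, Plin2 and Plin3 lay highest, Lipe lay near 0.5 and Mgll lay below 0.02.

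Plin2 encodes perilipin 2, the main coat protein of droplets outside fat tissue (ENSMUSG00000028494, GRCm38 chr4:86648386-86670060, minus strand). Its level was 186, 189, 223 and 181 CPM in the WT non-foamy libraries and 170.5, 197, 194 and 189 CPM in the WT foamy libraries. It was 205, 207 and 212 CPM in the Trem2-/- non-foamy libraries and 314, 292, 307 and 328 CPM in the Trem2-/- foamy libraries. The 4 Trem2-/- foamy libraries lay above all others, and the other 3 groups overlapped or adjoined. Plin2 rose 1.49-fold with cholesterol in Trem2-/- cells (log2 fold change 0.58, s.e. 0.07, edgeR adjusted p = 0.000184). In WT cells the log2 fold change was -0.05 (95% confidence interval -0.19 to 0.09, edgeR adjusted p = 0.781), an interval that leaves out a rise of the size seen in Trem2-/- cells. The difference of the responses was 0.63 on the log2 scale (s.e. 0.10, edgeR adjusted p = 0.000796). With cholesterol Plin2 was 1.65-fold higher in Trem2-/- than in WT cells (log2 0.72, s.e. 0.07, edgeR adjusted p = 3.79e-08), and these 3 calls held under every alternative that was run.

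Without cholesterol the difference of Plin2 between the lines was not called (log2 0.10, 95% confidence interval -0.05 to 0.25, edgeR adjusted p = 0.297). It turned on WT non-foamy replicate 3, whose 223 CPM was the highest WT value. Without that library the log2 difference was 0.17 and was called (edgeR adjusted p = 0.0360). With library totals in place of TMM factors it was -0.04, so no direction is given. Of the 50-base stretches of Plin2 exon, 2.57% also occur in Gm12551, where the counting could have placed some reads.

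**Figure D3:**
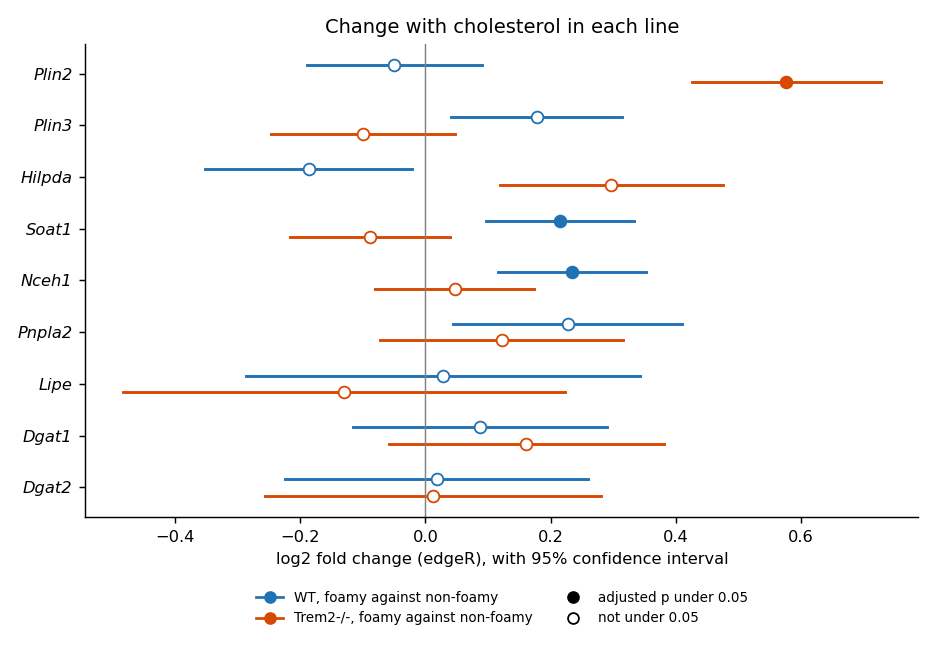
Log2 fold change with cholesterol (x axis) and its 95% confidence interval for the 9 tested genes (y axis) in WT and Trem2-/- cells, with filled points where the adjusted p was under 0.05. Plin2 was at 0.58 in Trem2-/- and -0.05 in WT cells, and Soat1 and Nceh1 were called in WT cells.

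Hilpda encodes a small droplet protein that blocks PNPLA2 and is known as a hypoxia-inducible gene (ENSMUSG00000043421, chr6:29272488-29275446, plus strand). It stood at 83.7, 78.8, 99.7 and 75.8 CPM in WT non-foamy and at 64.3, 74.9, 80.1 and 77.4 CPM in WT foamy libraries. The Trem2-/- libraries stood at 79.0, 76.9 and 81.3 CPM without and at 90.9, 95.8, 96.5 and 105 CPM with cholesterol. Within the Trem2-/- line the libraries did not overlap, while the WT groups did. The log2 fold change with cholesterol was 0.30 in Trem2-/- cells (s.e. 0.09), which was not called (edgeR adjusted p = 0.392, unadjusted p = 0.00236). In WT cells it was -0.19 (s.e. 0.08, edgeR adjusted p = 0.233). The difference of these responses, 0.48 on the log2 scale (s.e. 0.12), was called (edgeR adjusted p = 0.0247). That call was lost without WT foamy replicate 2, Trem2-/- non-foamy replicate 1 or Trem2-/- non-foamy replicate 2 (edgeR adjusted p = 0.0522, 0.0691 and 0.0764), with log2 differences of 0.46 to 0.49. With cholesterol Hilpda was 1.31-fold higher in Trem2-/- than in WT cells (log2 0.39, s.e. 0.08, edgeR adjusted p = 0.000667). Without cholesterol the log2 difference was -0.09 (edgeR adjusted p = 0.406), and it was called lower with library totals alone (-0.23, edgeR adjusted p = 0.0105).

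The levels of Plin2 and Hilpda were correlated across libraries. The Pearson correlation of their log2 CPM was 0.84 over the 15 libraries, 0.88 over the 8 WT libraries, 0.94 over the 7 Trem2-/- libraries and 0.87 after each group mean was taken away. The points share library, culture and depth, and the value describes these libraries only. WT non-foamy replicate 3 was highest of the WT libraries in both genes. The ratio of the CPM of Plin2 to that of Hilpda averaged 2.31 ± 0.0970 (s.d., n = 4) without and 2.54 ± 0.120 (n = 4) with cholesterol in WT cells. In the Trem2-/- line the same ratio averaged 2.63 ± 0.0478 (n = 3) without and 3.20 ± 0.179 (n = 4) with cholesterol. The ratio was highest in all 4 Trem2-/- foamy libraries (3.04 to 3.45, against at most 2.69 elsewhere).

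**Figure D4:**
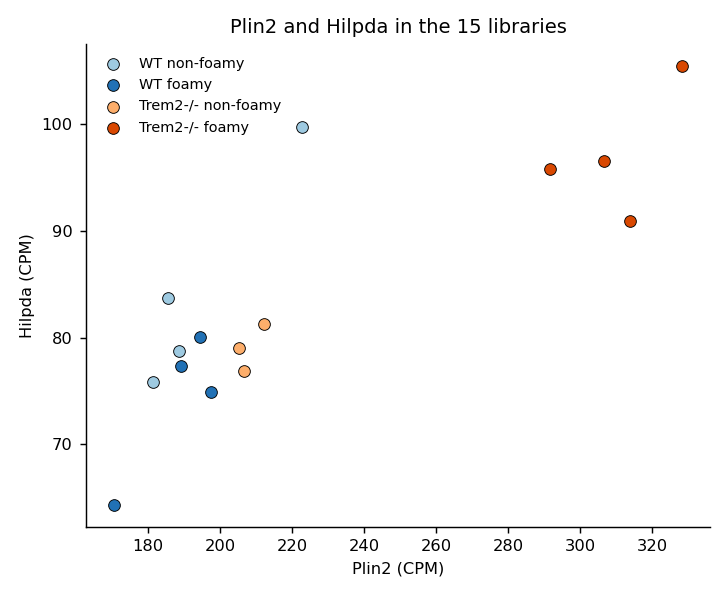
Hilpda (y axis, CPM) against Plin2 (x axis, CPM), 1 point per library, coloured by group. The 4 Trem2-/- foamy libraries lie to the upper right, at 292 to 328 CPM of Plin2 and 90.9 to 105 CPM of Hilpda, and the WT library at 223 CPM of Plin2 and 99.7 CPM of Hilpda lies apart from the other WT libraries.

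Promoter sequences of 4 members that were called with cholesterol or between the lines (Plin2, Hilpda, Soat1 and Pnpla2) are printed here so that they can be read beside these levels. RefSeq windows for GRCm38.p6 were found for 8 of the 10 genes (not for Dgat1 and Dgat2). Those of Nceh1 and Plin3 are not printed, because an annotated start of the gene lies upstream of the RefSeq start and the window could hold transcribed sequence. Each runs from 250 bases before the transcript start to 20 bases after it, 5′ to 3′ on the gene's strand, and capitals mark the motifs that were searched on both strands. One was ACGTG, the core of the hypoxia response element, which also stands inside the E-box, CACGTG. The nuclear receptor half-site AGGTCA was searched too, as were TCACCCCAC, the core of the sterol response element, and the AP-1 motif TGANTCA. The windows shown are Plin2 (chr4:86670040-86670309, minus strand), Hilpda (chr6:29272238-29272507, plus strand), Soat1 (chr1:156474309-156474578, minus strand) and Pnpla2 (chr7:141454938-141455207, plus strand).
Plin2 promoter: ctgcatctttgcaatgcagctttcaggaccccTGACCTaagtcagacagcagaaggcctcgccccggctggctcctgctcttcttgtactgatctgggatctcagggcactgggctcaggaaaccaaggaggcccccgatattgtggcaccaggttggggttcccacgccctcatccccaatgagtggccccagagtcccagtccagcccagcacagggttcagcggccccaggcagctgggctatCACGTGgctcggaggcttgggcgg
Hilpda promoter: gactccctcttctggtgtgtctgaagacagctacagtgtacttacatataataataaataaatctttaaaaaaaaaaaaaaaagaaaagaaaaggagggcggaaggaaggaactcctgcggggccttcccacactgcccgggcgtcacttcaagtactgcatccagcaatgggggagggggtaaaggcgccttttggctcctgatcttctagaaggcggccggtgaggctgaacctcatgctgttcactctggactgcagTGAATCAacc
Soat1 promoter: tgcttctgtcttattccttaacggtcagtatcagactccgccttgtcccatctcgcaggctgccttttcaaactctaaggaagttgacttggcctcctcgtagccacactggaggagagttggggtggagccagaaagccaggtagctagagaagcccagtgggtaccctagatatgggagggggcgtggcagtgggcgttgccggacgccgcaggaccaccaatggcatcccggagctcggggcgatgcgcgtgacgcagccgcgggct
Pnpla2 promoter: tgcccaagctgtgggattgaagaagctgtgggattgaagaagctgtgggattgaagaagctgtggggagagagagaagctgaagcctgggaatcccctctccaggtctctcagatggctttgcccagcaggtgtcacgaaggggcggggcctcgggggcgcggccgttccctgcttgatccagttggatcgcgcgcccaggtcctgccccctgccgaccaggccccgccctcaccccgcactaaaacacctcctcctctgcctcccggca

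The Plin2 window holds CACGTG from 4 bases before the start and AGGTCA, on the opposite strand, from 218 bases before it. Hilpda has TGANTCA from position 11 after the start. A second Hilpda window, which begins at a later start, holds ACGTG from 43 bases before that start, which is within the annotated span of the gene. Soat1, Pnpla2 and Plin3 hold none of the 5 motifs. CACGTG was also present in Nceh1 (from 26 bases before the RefSeq start), in Lipe (155 bases) and in Mgll (44 bases). The sites in Nceh1 and Lipe lie within the annotated span of the gene, after an earlier annotated start. Of 32851 mouse windows of the same length, 17.9% hold ACGTG, 6.57% CACGTG, 15% AGGTCA, 0.514% TCACCCCAC and 7.23% TGANTCA. These are matches of letters, and no binding was measured.

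Plin3 encodes perilipin 3, which moves from the cytosol to nascent droplets (ENSMUSG00000024197, chr17:56277476-56292873, minus strand). Its level was 188, 203, 189 and 199 CPM in WT non-foamy and 236, 229.6, 207 and 208 CPM in WT foamy libraries. The Trem2-/- line had 255, 260.3 and 275 CPM without and 261, 264, 240.3 and 219 CPM with cholesterol. Plin3 thus had its highest group mean in Trem2-/- non-foamy cells, and Plin2 in Trem2-/- foamy cells. Without cholesterol it was 1.35-fold higher in Trem2-/- cells (log2 0.44, s.e. 0.07, edgeR adjusted p = 2.53e-05). With cholesterol the log2 difference was 0.16 and was not called (edgeR adjusted p = 0.0682), but DESeq2 called it (adjusted p = 0.0440), and so did edgeR without WT foamy replicate 1 or Trem2-/- foamy replicate 4 (adjusted p = 0.0348 and 0.0150). The WT foamy libraries all lay above the WT non-foamy ones, but the log2 fold change of 0.18 (s.e. 0.07) was not called (edgeR adjusted p = 0.156). In Trem2-/- cells it was -0.10 (s.e. 0.07, edgeR adjusted p = 0.867), and the difference of the responses was not called either (log2 -0.28, s.e. 0.10, edgeR adjusted p = 0.115). Per library, the ratio of the CPM of Plin2 to that of Plin3 was 0.723 to 1.18 in WT cells of either condition, 0.771 to 0.804 in Trem2-/- non-foamy cells and 1.10 to 1.501 after cholesterol in that line.

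Soat1 encodes the enzyme that esterifies cholesterol in macrophages (ENSMUSG00000026600, chr1:156424525-156474331, minus strand). It was counted at 353, 364, 338 and 372 CPM in WT non-foamy and at 435, 431, 396 and 393 CPM in WT foamy libraries. The Trem2-/- line had 553, 562 and 557 CPM without and 518, 504, 519 and 556 CPM with cholesterol. The WT groups did not overlap, and all Trem2-/- libraries lay above all WT libraries. Without cholesterol Soat1 was 1.56-fold higher in Trem2-/- cells (log2 0.64, s.e. 0.06, edgeR adjusted p = 1.59e-08). With cholesterol it was 1.27-fold higher (log2 0.34, s.e. 0.06, edgeR adjusted p = 8.58e-05).

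The response of Soat1 to cholesterol was small in both lines. In WT cells it rose 1.16-fold (log2 0.21, s.e. 0.06, edgeR adjusted p = 0.0428). That call was lost in 7 of the 8 fits that left out 1 WT library, with the exception of WT foamy replicate 4 (edgeR adjusted p = 0.0545 to 0.159 in those 7), and also with library totals alone, without the filter, with the replicate block and with only the WT libraries (edgeR adjusted p = 0.0540 to 0.123). In Trem2-/- cells the log2 fold change was -0.09 (95% confidence interval -0.22 to 0.04, edgeR adjusted p = 0.867). The difference of the responses was -0.30 (s.e. 0.08, edgeR adjusted p = 0.0446). This call held in only 5 of the 15 fits that left out 1 library and was lost in the rest. It held without WT non-foamy replicate 3 or 4, WT foamy replicate 3 or 4, or Trem2-/- foamy replicate 4. The call was also lost with library totals alone, without the filter and with the replicate block (edgeR adjusted p = 0.0631 to 0.101). The log2 value of the difference lay between -0.33 and -0.28 in all alternatives.

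Nceh1 encodes the neutral hydrolase of cholesterol esters (ENSMUSG00000027698, chr3:27182965-27284608, plus strand). Its level was 129.6, 140.3, 137 and 139 CPM in WT non-foamy and 159, 163, 159 and 161 CPM in WT foamy libraries. Trem2-/- levels were 210.3, 208 and 209 CPM without and 220.2, 203, 203 and 236 CPM with cholesterol. As with Soat1, the WT groups did not overlap and the Trem2-/- libraries lay above all WT libraries. In WT cells Nceh1 rose 1.18-fold with cholesterol (log2 0.23, s.e. 0.06, edgeR adjusted p = 0.0261). The call was lost without WT non-foamy replicate 1 or 4 or WT foamy replicate 2 or 3 (edgeR adjusted p = 0.0532 to 0.103), and with only the WT libraries (edgeR adjusted p = 0.0624). In Trem2-/- cells the log2 fold change was 0.05 (95% confidence interval -0.08 to 0.17, edgeR adjusted p = 0.948), and the difference of the responses, -0.19, was not called (edgeR adjusted p = 0.238). Nceh1 was 1.53-fold higher in Trem2-/- cells without cholesterol (log2 0.61, s.e. 0.06, edgeR adjusted p = 2.97e-08) and 1.34-fold higher with it (log2 0.43, s.e. 0.06, edgeR adjusted p = 5.36e-06).

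The ratio of the CPM of Soat1 to that of Nceh1, which make and cleave cholesterol esters, lay between 2.35 and 2.73 in every library. It is a ratio of reads, not of transcripts, since it was not corrected for exon length (9.79 kilobases for Soat1 and 5.25 for Nceh1). Per kilobase the WT non-foamy means were 36.4 CPM for Soat1 and 26.0 CPM for Nceh1. Soat1 had 2.62 ± 0.106 (s.d., n = 4) times the reads of Nceh1 in WT cells without cholesterol and 2.58 ± 0.133 (n = 4) times with it. The Trem2-/- line had 2.67 ± 0.0395 (n = 3) and 2.43 ± 0.0980 (n = 4) times. In that line the groups did not overlap, at 2.63 to 2.71 without and 2.35 to 2.55 with cholesterol, and this was not tested. The Pearson correlation of the log2 CPM of Soat1 and Nceh1 was 0.97 over the 15 libraries, which fall into a WT and a Trem2-/- cluster. It was 0.54 after each group mean was taken away. 

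**Figure D5:**
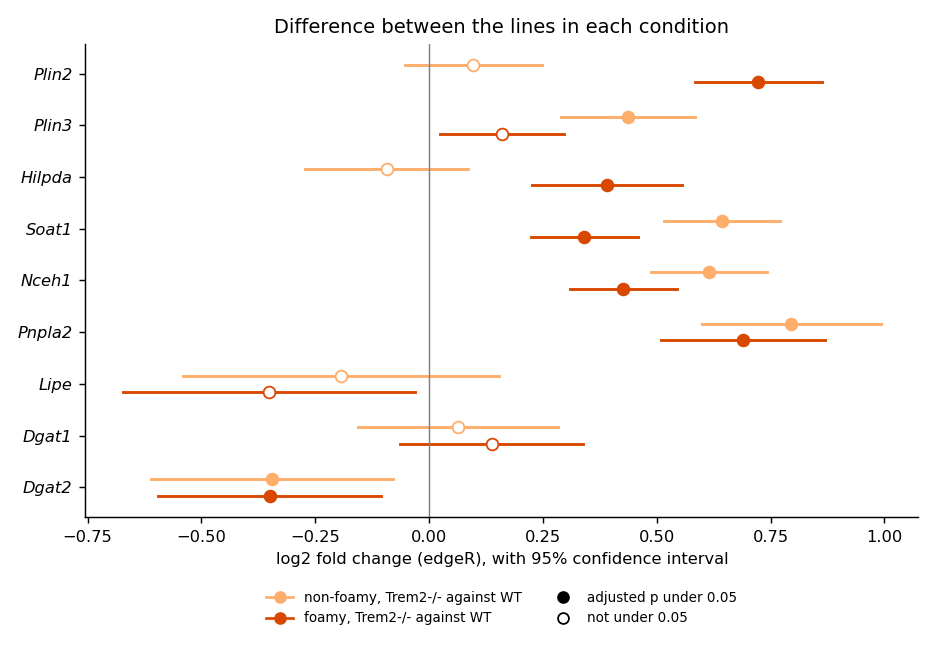
Log2 difference between Trem2-/- and WT cells (x axis) and its 95% confidence interval for the 9 tested genes (y axis), without and with cholesterol, with filled points where the adjusted p was under 0.05. Soat1, Nceh1 and Pnpla2 were to the right and Dgat2 to the left in both conditions, and Plin2 and Hilpda were called with cholesterol only.

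Pnpla2 encodes the lipase that starts the breakdown of stored triglyceride (ENSMUSG00000025509, chr7:141455198-141460743, plus strand). Its level was 28.7, 31.7, 25.5 and 33.3 CPM in WT non-foamy and 37.6, 33.5, 33.5 and 35.1 CPM in WT foamy libraries. Trem2-/- levels were 53.5, 50.5 and 51.5 CPM without and 61.4, 62.7, 54.5 and 46.9 CPM with cholesterol. All Trem2-/- libraries lay above all WT libraries. Pnpla2 was 1.74-fold higher in Trem2-/- cells without cholesterol (log2 0.80, s.e. 0.09, edgeR adjusted p = 3.98e-07), the largest difference between the lines among the 9 genes in that condition, and 1.61-fold higher with it (log2 0.69, s.e. 0.09, edgeR adjusted p = 2.84e-06). With cholesterol its log2 fold change was 0.23 in WT cells (95% confidence interval 0.04 to 0.41, edgeR adjusted p = 0.183) and 0.12 in Trem2-/- cells (95% confidence interval -0.07 to 0.32, edgeR adjusted p = 0.885). The ratio of the CPM of its inhibitor Hilpda to that of Pnpla2 averaged 2.90 ± 0.728 (s.d., n = 4) without and 2.13 ± 0.293 (n = 4) with cholesterol in WT cells, and 1.53 ± 0.0497 (n = 3) and 1.76 ± 0.351 (n = 4) in Trem2-/- cells.

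Lipe encodes hormone-sensitive lipase, which cleaves diacylglycerol and sterol esters (ENSMUSG00000003123, chr7:25379527-25398710, minus strand). It was counted with 61 to 178 reads per library, or 2.995 to 3.97 CPM in WT non-foamy, 3.38 to 3.86 in WT foamy, 2.75 to 3.36 in Trem2-/- non-foamy and 2.26 to 3.03 in Trem2-/- foamy libraries. With cholesterol all Trem2-/- libraries lay below all WT libraries, but the log2 difference of -0.35 (s.e. 0.15) was not called (edgeR adjusted p = 0.0902). It was called with library totals alone (-0.48, edgeR adjusted p = 0.0189). Of its exonic bases, 15.6% overlap 4732471J01Rik on the opposite strand, and reads of the 2 genes cannot be told apart without strand, which is not given in the sources used here.

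Mgll encodes the lipase for monoacylglycerol (ENSMUSG00000033174, chr6:88724412-88828360, plus strand) and was at the limit of detection. Its reads were 2, 2, 0 and 2 in WT non-foamy, 8, 0, 0 and 4 in WT foamy, 6, 0 and 4 in Trem2-/- non-foamy and 8, 0, 2 and 0 in Trem2-/- foamy libraries. A count of 0 allows up to 3 reads if reads are independent. All counts of Mgll were even, so a 0 may allow more here. A difference between groups was not detectable at this depth. Part of its exons (3.29%) overlap Gm26588 on the opposite strand.

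Dgat1 (ENSMUSG00000022555, chr15:76502015-76511953, minus strand) encodes a triglyceride synthase of the endoplasmic reticulum and was not called in any of the 5 comparisons. Its range was 10.6 to 12.9 CPM in WT non-foamy, 10.4 to 13.5 in WT foamy, 11.1 to 12.7 in Trem2-/- non-foamy and 12.6 to 14.6 in Trem2-/- foamy libraries, and the neighbouring groups overlapped. Its log2 values lay between 0.06 and 0.16 in the 5 comparisons, and the lowest edgeR adjusted p was 0.311.

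Dgat2 encodes the other triglyceride synthase, which also sits at droplets (ENSMUSG00000030747, chr7:99153658-99182719, minus strand), and was the member that was lower in Trem2-/- cells. It had 17.2, 21.4, 15.6 and 17.7 CPM in WT non-foamy and 21.2, 17.5, 17.6 and 16.5 CPM in WT foamy libraries. Trem2-/- levels were 15.2, 12.2 and 15.1 CPM without and 17.7, 13.5, 13.01 and 12.8 CPM with cholesterol. The lines did not overlap without cholesterol and overlapped with it, through 1 Trem2-/- library at 17.7 CPM. Dgat2 was lower in Trem2-/- cells without cholesterol (log2 -0.34, s.e. 0.13, edgeR adjusted p = 0.0344) and with it (log2 -0.35, s.e. 0.12, edgeR adjusted p = 0.0276). Both calls rest on few libraries. The first was lost without WT non-foamy replicate 2 or 4 or Trem2-/- non-foamy replicate 2 (log2 -0.25, -0.35 and -0.25, edgeR adjusted p = 0.131, 0.0508 and 0.184). The second was lost without WT foamy replicate 1 or Trem2-/- foamy replicate 2, 3 or 4 (log2 -0.27 to -0.32, edgeR adjusted p = 0.0664 to 0.102). Its log2 fold change with cholesterol was 0.02 in WT and 0.01 in Trem2-/- cells, with 95% confidence intervals of -0.22 to 0.26 and -0.26 to 0.28.

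The wider droplet and ester machinery was read from 40 further genes, of which 25 passed the filter on low counts. The droplet coat genes Plin1, Plin4, Plin5, Cidea and Cidec were among the 15 that did not. With cholesterol 0 of the 25 were called by edgeR in WT or in Trem2-/- cells, and 0 in the difference of the responses. At an unadjusted p under 0.05 there were 4, 0 and 3, against 16.4%, 6.45% and 17.3% of all genes. DESeq2 called 2 in WT cells, Hsd17b11 and Lipa, both higher with cholesterol, against 3.53% higher and 3.79% lower of 12026 genes. It called 0 in Trem2-/- cells, against 0.357% higher and 0.169% lower of 10647 genes. In the difference it called 0, against 4.94% and 3.64% of 11474 genes. These DESeq2 shares cover only genes to which it gave an adjusted p, while the 25 were counted whether or not they had one. With library totals alone edgeR called Hsd17b11 as higher in the WT response, against 1.26% of all genes higher. This gene was also called as more negative in the difference of the responses, against 1.18% of all genes. Between the lines, 7 genes were higher in Trem2-/- cells without cholesterol and 8 were lower, against 21% and 22.6% of all genes. With cholesterol there were 5 of each kind, against 14.3% and 15.9%. The median log2 difference of the 25 was -0.13 in the first and -0.07 in the second comparison. With library totals alone the counts became 3 higher and 8 lower (12.8% and 30.8% of all genes), and 4 higher and 10 lower (7.83% and 25.7%).

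By role, the list was counted without a test between roles, against the same shares of all genes. Of 6 tested genes of droplet coat and assembly, 3 were higher in Trem2-/- cells in each condition and 0 were lower, or, with library totals alone, 2 higher and 0 lower without and 3 higher and 1 lower with cholesterol. The largest difference was that of Hsd17b11, a droplet-associated dehydrogenase, from 39.4 ± 2.61 CPM (s.d., n = 4) in WT to 75.3 ± 4.52 CPM (n = 3) in Trem2-/- non-foamy cells (log2 0.94, s.e. 0.08, edgeR adjusted p = 1.86e-09), and it was also higher with cholesterol (log2 0.62, s.e. 0.07, edgeR adjusted p = 8.96e-07). Of 14 tested genes of glycerolipid synthesis, 8 had a lower and 2 a higher level without cholesterol, and 4 a lower and 0 a higher level with it. With library totals alone 8 were lower and 0 higher in each condition. Among them Acsl3, an acyl-CoA synthetase of nascent droplets, had the largest decrease of the 8 called without cholesterol, from 55.6 ± 0.963 CPM (n = 4) to 38.5 ± 0.531 CPM (n = 3, log2 -0.53, s.e. 0.06, edgeR adjusted p = 4.12e-07). Lipa, the lysosomal acid lipase that frees cholesterol from ingested esters, was higher in Trem2-/- cells without (log2 0.58, s.e. 0.06, edgeR adjusted p = 1.14e-07) and with cholesterol (log2 0.46, s.e. 0.06, edgeR adjusted p = 3.08e-06). Soat2, the sterol acyltransferase of gut and liver, was at 3.24 ± 0.850 CPM (n = 4) in WT and 2.03 ± 0.574 CPM (n = 4) in Trem2-/- foamy cells, with overlapping libraries (log2 -0.67, s.e. 0.21, edgeR adjusted p = 0.0186).

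Across the 15 libraries the gene whose log2 CPM was most like that of Plin2, among 11707 tested genes of at least 1 CPM, was Cpt1a, which carries fatty acids into mitochondria (Pearson r = 0.94). Its group means were 24.6 CPM without and 24.1 CPM with cholesterol in WT cells, and 28.9 and 45.2 CPM in Trem2-/- cells. Notch4 (r = 0.90), Hspa8, Serinc3 and Tcim (r = 0.89 each) followed, and Hilpda ranked 45. These are descriptions over libraries that share group, depth and preparation.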

How the data were processed

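RNA was isolated from BV2 cells with TRIzol and RNeasy, and libraries were made with a TruSeq kit and sequenced on a NovaSeq. According to the methods, the authors processed reads in the CHURP pipeline (Trimmomatic, HISAT2, SAMTools and featureCounts) against GRCm38, and deposited 1 table of raw counts per gene for each library, without normalization. How strand and reads with several matches were treated is not given in the sources used here. Antisense or similar genes can therefore add reads to a member. Exon overlap on the opposite strand is given with Lipe and Mgll, and shared stretches of exon with Plin2. By the same search, Plin3 shared 1.2% of its stretches with 105 genes and Soat1 shared 0.72% with 424 genes. Lipe (10.8%) and Mgll (1.36%) shared stretches with the genes that overlap them. The other members shared none.

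Each library was put in its group from its title. Genes were kept with filterByExpr of edgeR 4.0.16 (minimum count 10), which left 14237 genes with 99.97% of the counts. TMM factors ranged from 0.918 to 1.11. All 15 libraries were fitted with 1 mean per group by glmQLFit and glmQLFTest in R 4.3.3, and p-values were adjusted by Benjamini-Hochberg over all tested genes. The biological coefficient of variation was 10.2%. The standard error (s.e.) and 95% confidence interval come from the fitted weights and the moderated dispersion. No pair of libraries held identical counts, and the chi-square per gene between replicates was 5.95 or more. Intervals cover the spread between libraries. Exon lengths and overlaps came from GENCODE M21 for GRCm38 and promoter windows from RefSeq. Alternatives were RLE factors, library totals alone, no filter, DESeq2 1.42.0, only the groups compared, a replicate block, each library left out in turn and, chosen after seeing the data, halved counts.

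The members, the wider list, the markers, the motifs and the tests were chosen with earlier results of these data known. The named genes were every member, Trem2, of the wider list those called with cholesterol and the 3 called genes with the largest absolute log2 fold change between the lines in each condition, and the 5 genes most like Plin2. Hsd17b11 and Lipa as DESeq2 calls were also named.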

Additional observations from a re-analysis of the deposited data

Results flagged for a closer look

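The responses of Plin2, Hilpda and Soat1 to cholesterol differed between the lines by a test of the difference itself (edgeR). The log2 fold change of Plin2 with cholesterol was larger by 0.63 in Trem2-/- than in WT cells (adjusted p = 0.000796), at 0.58 and -0.05. For Hilpda this difference of the responses was 0.48 (adjusted p = 0.0247), with responses of 0.30 and -0.19, neither of which was called alone. For Soat1 it was -0.30 (adjusted p = 0.0446), with responses of -0.09 and 0.21, and this call was lost in 10 of 15 fits that left out 1 library.

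Single libraries lay far from the rest of their group for 2 genes, by Dixon's ratio of the gap to the range (over 0.829 for 4 libraries). Dgat2 was at 17.7 CPM in Trem2-/- foamy replicate 1, where the next library was at 13.5 CPM. Lipe was at 3.86 CPM in WT foamy replicate 2, where the next was at 3.45 CPM. In 30 groups of 4 libraries looked at, chance gives about 1 such library in 20 groups.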

How the results depend on the processing

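Under the alternatives, 645 of 711 values of the 45 tested member results kept their direction and their side of the threshold. The call was lost in 39 and gained in 6, and 21 values changed sign, of which 0 belonged to a result called in either setting. The number of members called in the WT response fell from 2 to 1 with library totals alone, without a filter and with the replicate block, and to 0 with only the groups compared (edgeR, where the unadjusted p of 5 members was under 0.05 in the fit of all libraries and DESeq2 called 2). Leaving out 1 library gave 0 to 2 in the WT response and 1 to 3, against 3, in the difference of the responses. Signs that changed were those of Plin2 and Dgat1 between the lines without cholesterol (-0.038 and -0.080 with library totals alone) and of Dgat2 in the difference of the responses (0.0037 with library totals alone and 0.026 with the replicate block). On leaving out 1 library, Plin2 in the WT response ranged from -0.082 to 0.021, Lipe from -0.034 to 0.11, Dgat2 from -0.064 to 0.11 in the WT response, from -0.11 to 0.066 in the Trem2-/- response and from -0.13 to 0.077 in their difference. The causes were not tested.

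Libraries with the same replicate number deviated together with r = -0.10 to 0.14 (21 pairs, 1 over 0.1), so the numbers do not pair them. With the replicate block Soat1 lost its calls in the WT response and in the difference (edgeR adjusted p = 0.0615 and 0.0655), and every other call of a member was the same. Library totals alone moved the median log2 difference of all genes between the lines to -0.13 in both conditions, from 0.02 and 0.00033. The calls of all genes then split into 1820 higher and 4379 lower, against 2985 and 3222, without cholesterol, 1115 and 3666, against 2036 and 2261, with it, 179 and 249, against 237 and 162, in the WT response, and 397 and 168, against 284 and 234, in the difference of the responses. Of 40 group levels per kilobase, 11 moved by over 1 s.d. with library totals. Changes under about 0.2 on the log2 scale were mostly not called at this depth and replicate number, and Mgll was too low to test.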
